A study of Mus musculus with 6 samples.

Results

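The 105 genes described here encode the mitochondrial respiratory chain and ATP synthase. They were chosen by name from the 49315 genes of the deposited count table: names starting with Nduf and a, b, c, s or v, the 4 genes Sdha to Sdhd, names starting with Uqcr, with Cox and a digit from 4 to 8, or with Atp5, and the mitochondrially encoded mt-Nd, mt-Co, mt-Cytb and mt-Atp genes. Another 7 names ending in -ps, which mark pseudogenes, were left out. Of the 105, 92 are nuclear genes and 13 lie in mitochondrial DNA. The rule itself uses names and no measured value, though it was written with earlier results of these data known.

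The study sequenced mRNA of CD8+ T cells sorted from lymph nodes that drain B16F10 tumors, a mouse melanoma line, in wild-type female C57BL/6J mice. The sample labels spell the line B26F10. The monotherapy group (3 libraries) had HCW9218, a complex that joins a TGF-β receptor II trap to an IL-15 superagonist, given subcutaneously. The combination group (3 libraries) had the same agent with anti PD1, an antibody against the checkpoint receptor PD-1, given into the peritoneum. Both groups therefore carry HCW9218, and an untreated group was not analysed here. Cells were taken on day 5 after a single dose given at tumor volumes of 50 to 100 mm3. The labels number the replicates 1 to 3 but do not say whether each is 1 mouse, so that p-values measure the spread between these samples only.

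Electrons from NADH enter the chain at complex I and those from succinate at complex II. They pass through ubiquinone to complex III, through cytochrome c to complex IV and so to oxygen. Complexes I, III and IV pump protons, and complex V, the ATP synthase, uses the gradient to make ATP. Complex II is wholly nuclear encoded, while the other complexes combine nuclear subunits with a few made inside the organelle. T cells are known to raise both glycolysis and respiration on activation, and IL-15 is known for supporting mitochondrial content in memory CD8+ T cells. RNA levels do not measure assembled complexes or respiration.

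The 6 libraries held 34568074 to 40101346 counts. Cd8a, which defines the labelled cell type, was between 1419 and 1645 CPM (counts divided by the scaled library total and expressed on a common scale) in every library, and Cd4 between 0.425 and 3.06 CPM. Cd8b1 varied more, from 955 CPM in combination replicate 3 to 1505 CPM in monotherapy replicate 1. The melanocyte genes Dct and Tyrp1 had 0 or 1 count in the monotherapy libraries and in combination replicate 1, and 281 to 377 counts in combination replicates 2 and 3. The 6 melanocyte genes listed summed to 20.9 to 27.1 CPM in the monotherapy and 29.0 to 53.1 CPM in the combination libraries. In bulk RNA, fewer cells of a type and less RNA per cell cannot be told apart.

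No respiratory chain gene passed the test of combination against monotherapy. A count filter by group kept 99 of the 105 genes, 86 nuclear and 13 mitochondrial. With edgeR's quasi-likelihood test and Benjamini-Hochberg adjustment over all 15142 genes tested, 0 of the 99 were called higher and 0 lower, and the smallest adjusted p among them was 0.661. Over all genes 0.951% were called higher and 0.132% lower (1.08% in either direction). At an unadjusted p under 0.05, 0 of the 99 genes stood against 8.0% of all genes. DESeq2 (2.01% of all genes called) and limma-voom (0.911%) also called 0 of them. In no gene of the 99 did the 3 combination libraries lie all above or all below the 3 monotherapy libraries, a separation seen upwards in 7.17% and downwards in 7.54% of all genes.

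The median log2 fold change, combination over monotherapy, was 0.14 for the 86 nuclear genes and 0.07 for the 13 mitochondrial genes, against 0.00 over all genes tested. Of the nuclear genes, 77 had an estimate above 0. Standard errors ran from 0.13 to 0.45 log2 units in nuclear genes and from 0.29 to 0.55 in mitochondrial genes, and 82 of the 99 estimates lay within 1 standard error of 0. These medians rested on single libraries. Without combination replicate 1 they were -0.11 and -0.10, with 11 of 86 nuclear genes above 0. Without combination replicate 3 they were 0.39 and 0.42, with 83 of 86 and 13 of 13 above 0.

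**Figure D1:**
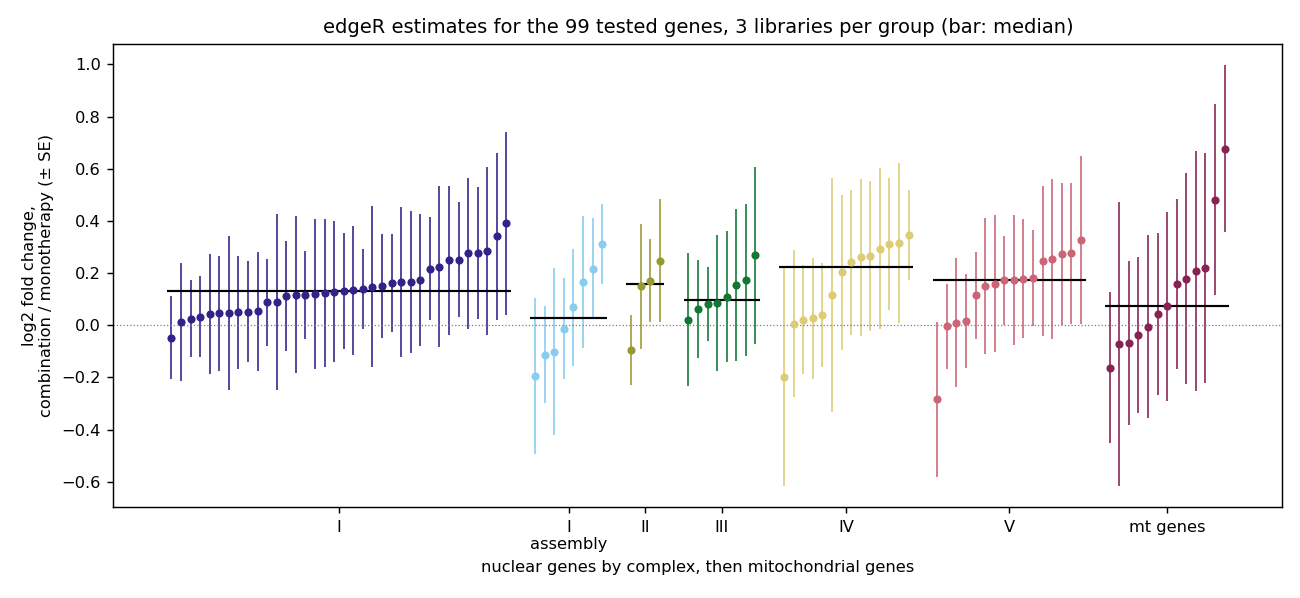
Log2 fold change of combination over monotherapy with its standard error (y axis, edgeR) for each of the 99 tested genes, ordered within complexes (x axis), 3 libraries per group; black bars are medians. Complex IV has the highest nuclear median at 0.22 and the complex I assembly factors the lowest at 0.03, and no gene passed the adjusted test. This order did not hold without combination replicate 1. Complex IV was then at -0.12 and the assembly factors at -0.08, with complex II highest at -0.02 and complex III lowest at -0.17.

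What set the combination libraries apart was their distance from each other. Relative to the mean of the monotherapy libraries, the median nuclear gene stood at 0.59 log2 units in combination replicate 1, at 0.09 in replicate 2 and at -0.49 in replicate 3. The monotherapy libraries themselves lay at 0.19, -0.06 and -0.12. Mitochondrial genes had medians of 0.52, 0.38 and -0.88 in the combination libraries. Over the 6 of them with low counts, from mt-Co2 to mt-Nd4l, these were 0.64, 0.69 and -1.03, and over the other 7 they were 0.41, 0.20 and -0.88. The median log2 fold change was 0.21 over the 6 and -0.0047 over the 7. Combination replicate 1 was above all 3 monotherapy libraries in 90 of 99 genes, where 35.1% of all genes were. Combination replicate 3 was below all 3 in 88 of 99, where 37.6% of all genes were. Both held in 81 of the 99 genes (81.8%) and in 16.6% of all genes. The SD of log2 CPM was larger within the combination group than within the monotherapy group in 97 of 99 genes, and in 72.7% of all genes tested. The median SD of the 99 genes was 0.19 in monotherapy and 0.59 in combination, against 0.17 and 0.30 over all genes.

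**Figure D2:**
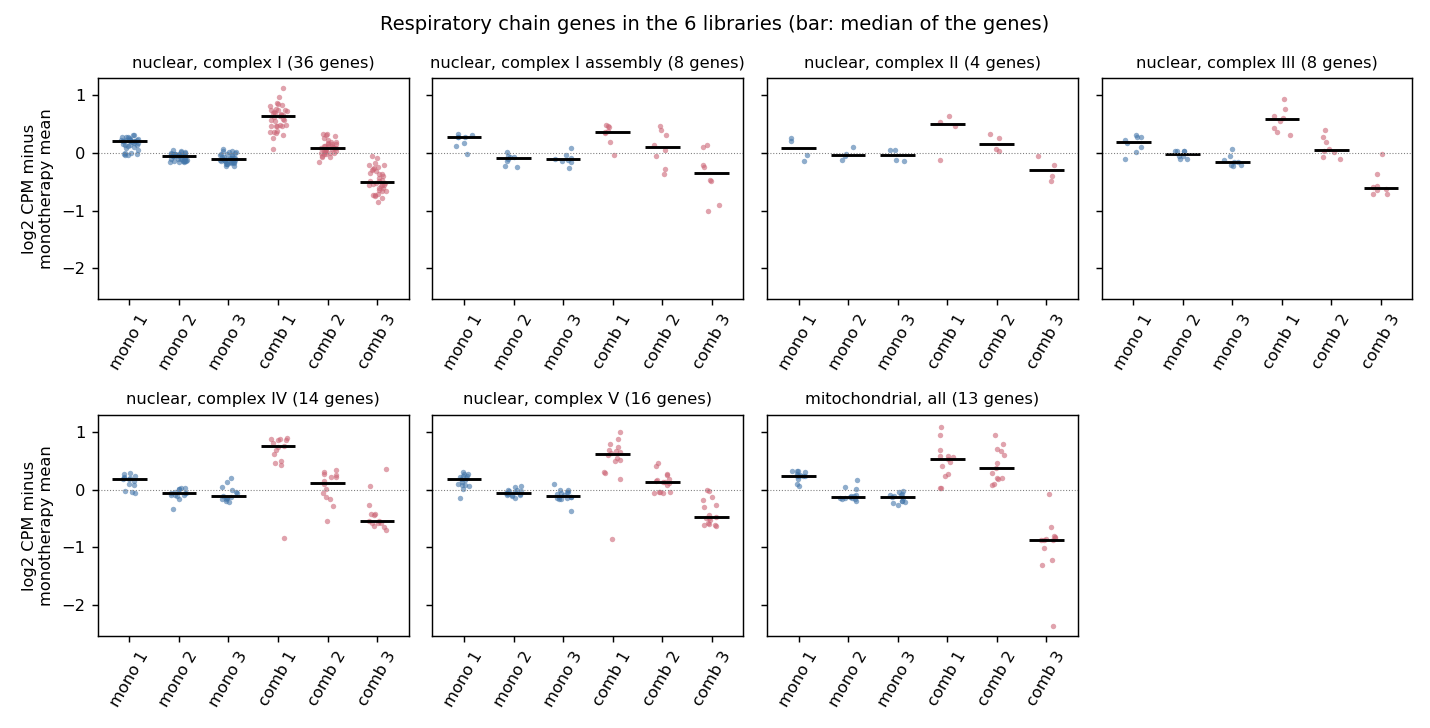
Log2 CPM minus the mean of the monotherapy libraries (y axis) for every tested gene in each of the 6 libraries (x axis; mono, monotherapy; comb, combination), by complex; black bars are medians. In all 7 panels combination replicate 1 has the highest median and combination replicate 3 the lowest, with nuclear complex IV medians of 0.75 and -0.54.

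Complex I takes electrons from NADH. Its 36 nuclear genes had a median log2 fold change of 0.13, from -0.05 to 0.39, and 35 were above 0. In 33 of the 36, combination replicate 1 was above and replicate 3 below every monotherapy library. Ndufa6, an accessory subunit at chr15:82350139-82354291, had the highest estimate. It measured 61.7, 44.7 and 44.2 CPM in monotherapy and 108, 56.5 and 33.4 CPM in combination. The combination values enclosed those of monotherapy on both sides, and the log2 fold change was 0.39 ± 0.35 (SE, n = 3 per group, edgeR adjusted p = 0.929). Ndufs1, the large iron-sulfur subunit, had the lowest estimate at -0.05 ± 0.16 (SE, edgeR adjusted p = 0.986), with 122, 103 and 92.4 CPM in monotherapy and 110, 112 and 84.9 CPM in combination. Ndufa12, an accessory subunit with the smallest p of the complex (unadjusted 0.281), measured 29.7, 29.9 and 31.8 CPM in monotherapy and 49.5, 34.7 and 24.7 CPM in combination. Per kilobase of exonic sequence, Ndufb11, a membrane-arm subunit, was the most abundant at 138 ± 49.2 CPM per kb (SD, n = 6 libraries), followed by Ndufa6 at 104 ± 46.9. That gap was smaller than their spread over libraries.

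The 8 Ndufaf genes encode factors that help build complex I and are not part of it. Their median log2 fold change was 0.03, with 4 above 0 and 4 below. Ndufaf7, a methyltransferase, had the smallest p of all nuclear genes here. It measured 16.8, 14.3 and 14.0 CPM in monotherapy and 19.2, 20.7 and 16.1 CPM in combination. Combination replicates 1 and 2 were above all monotherapy libraries and replicate 3 was among them. Its log2 fold change was 0.31 ± 0.15 (SE, n = 3 per group), with an unadjusted p of 0.0695 and an edgeR adjusted p of 0.687. Ndufaf8 had the lowest estimate at -0.19 ± 0.30 (SE) and, per length, a level of 12.3 ± 3.71 CPM per kb (SD, n = 6 libraries), close to Ndufaf2 at 12.5 ± 3.86. Ndufaf1 measured 15.1, 14.1 and 12.6 CPM in monotherapy and 19.5, 17.2 and 11.9 CPM in combination. The assembly factors as a group were less abundant per length than the subunits, with medians of 8.26 and 33.1 CPM per kb.

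Complex II, succinate dehydrogenase, also works in the citric acid cycle. Sdha, its flavoprotein, measured 275, 276 and 291 CPM in monotherapy and 258, 288 and 243 CPM in combination. Of the 4 genes it alone had combination replicate 1 below every monotherapy library, and its log2 fold change was -0.09 ± 0.13 (SE, edgeR adjusted p = 0.961). Sdhb, the iron-sulfur subunit, measured 109, 91.1 and 85.3 CPM in monotherapy and 148, 119 and 71.6 CPM in combination. It had the highest estimate of the complex, 0.25 ± 0.24 (SE), in groups that overlapped. Sdhc and Sdhd, the membrane anchors, had estimates of 0.17 ± 0.16 and 0.15 ± 0.24 (SE). Per length the order was Sdha at 70.0, Sdhd at 54.8, Sdhb at 46.4 and Sdhc at 16.5 CPM per kb, with SDs over the 6 libraries of 4.76, 13.8, 12.2 and 2.53. The difference between Sdhd and Sdhb was within that spread.

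Complex III passes electrons from ubiquinol to cytochrome c. All 8 of its nuclear genes had an estimate above 0, from 0.02 in Uqcr11 to 0.27 in Uqcrh, with a median of 0.10. Uqcrh, the hinge protein that meets cytochrome c, measured 135, 101 and 93.5 CPM in monotherapy and 207, 124 and 65.9 CPM in combination. The combination libraries enclosed those of monotherapy on both sides, and the estimate had a standard error of 0.34 (edgeR adjusted p = 0.953). The core subunit gene Uqcrc1 spread less, with 94.6, 104 and 106 CPM against 125, 96.6 and 99.9 CPM. Uqcrc2, the other core subunit, reached 243, 187 and 179 CPM in monotherapy and 257, 266 and 133 CPM in combination. Uqcrh and Uqcrc2 were the most abundant per length, at 97.9 ± 39.2 and 82.6 ± 20.6 CPM per kb (SD, n = 6 libraries), a difference within their spread. Uqcr10 had the second smallest p of the complex (unadjusted 0.568).

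Complex IV, cytochrome c oxidase, reduces oxygen. Its nuclear genes number 20 here, counting Ndufa4, which was once assigned to complex I, and its paralog Ndufa4l2. The 14 that passed the filter had a median log2 fold change of 0.22, and 13 were above 0. Cox4i1, at chr8:120668222-120674207, encodes a large subunit that closes the catalytic core. It measured 237, 249 and 242 CPM in monotherapy and 443, 259 and 203 CPM in combination. The SD was 5.75 CPM in monotherapy and 126 CPM in combination, and the log2 fold change was 0.31 ± 0.25 (SE, n = 3 per group, edgeR adjusted p = 0.910). Cox5a, at chr9:57521274-57532426, had the smallest p of the complex (unadjusted 0.0733, edgeR adjusted 0.694) and its highest estimate, 0.35 ± 0.17 (SE). It measured 35.9, 33.8 and 30.9 CPM in monotherapy and 54.0, 38.9 and 35.1 CPM in combination, where replicate 3 lay between monotherapy values. Cox6b2, the testis version of its subunit, had the lowest estimate at -0.20 ± 0.42 (SE) from 16 to 46 counts per library.

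Several subunits of complex IV exist as versions that are known to be used in different tissues, and these cells used mainly 1 of each. Cox4i1 had 60613 counts over the 6 libraries and Cox4i2, the version known from lung and from low oxygen, had 4. Cox6a1 held 99.9% of the per-length level of its pair, where Cox6a2 is known from heart and skeletal muscle. Cox6b1 held 99.3% against 0.736% for Cox6b2. Of the 2 Cox8 versions other than Cox8a, Cox8b had 29 counts in all and Cox8c had 1. Ndufa4 had 21723 counts and Ndufa4l2, known as a gene induced by low oxygen, had 2. Cox7b2 had 0 counts in every library, which cannot be told from a low expected level, set here at 3 counts per library. Of the Cox7a genes, Cox7a2l, which encodes a factor that joins complexes III and IV into supercomplexes, was at 344 ± 111 CPM per kb, Cox7a2 at 48.2 ± 17.5 and the muscle version Cox7a1 at 2.02 ± 0.858 (SD, n = 6 libraries). Per kilobase of exonic length, Cox7a2l and Cox6a1 (224 ± 46.7 CPM per kb) ranked highest among the nuclear genes of the complex. This order depends on the length used. Cox4i1 had 1550 exonic bases and a longest protein-coding transcript of 765, where Cox6a1 had 702 and 571. The 6 of the 20 genes that did not pass the filter were Cox4i2, Cox6a2, Cox7b2, Cox8b, Cox8c and Ndufa4l2.

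**Figure D3:**
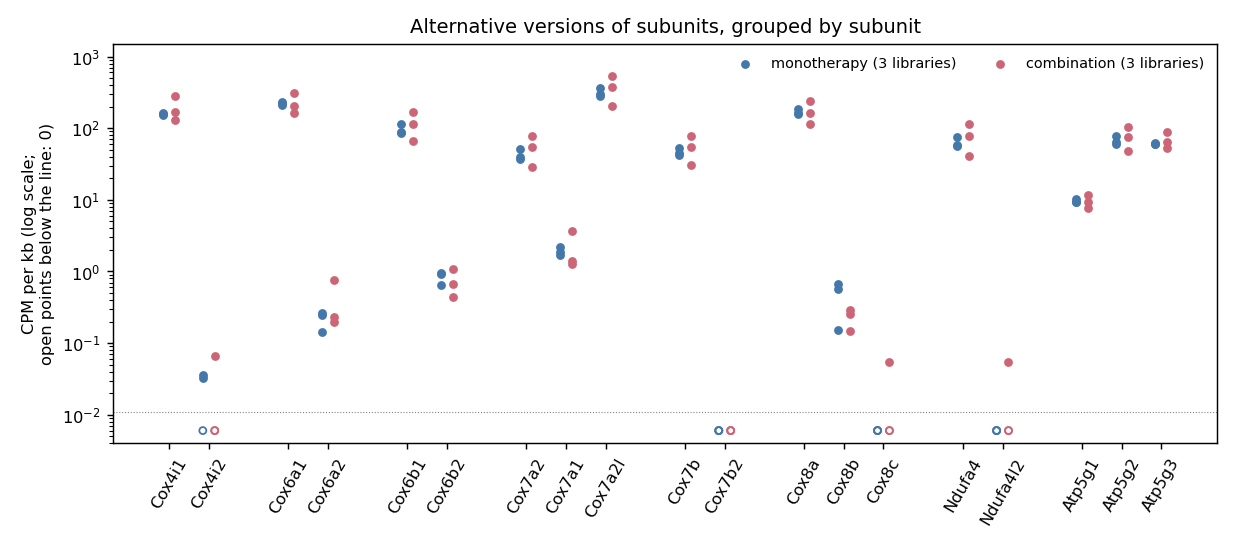
CPM per kb of exonic length on a log axis (y axis) for alternative versions of complex IV subunits and of ATP synthase subunit c (x axis); each point is 1 of 3 libraries per group and open points are libraries with 0 counts. Cox4i1, Cox6a1, Cox6b1, Cox8a and Ndufa4 lie more than 100-fold above their paralogs in the mean of the 6 libraries, while Atp5g2 and Atp5g3 are close to each other.

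Complex V was represented by 16 nuclear genes with a median log2 fold change of 0.17, 14 of them above 0. Its catalytic head is built from the products of Atp5a1 and Atp5b. Per exonic length these ranked highest in the complex, at 195 ± 21.3 and 178 ± 20.6 CPM per kb (SD, n = 6 libraries), a difference within their spread. The order depends on the length used. Atp5a1 had 3135 exonic bases and a longest protein-coding transcript of 2674, where Atp5b had 4237 and 1916. Atp5a1 measured 619, 574 and 569 CPM in monotherapy and 723, 647 and 538 CPM in combination. Atp5b measured 823, 718 and 713 CPM in monotherapy and 851, 808 and 620 CPM in combination. In both genes replicate 1 of the combination group was the highest of the 6 libraries and replicate 3 the lowest. Atp5l, which encodes a membrane subunit at the dimer interface, had the highest estimate, 0.33 ± 0.32 (SE, edgeR adjusted p = 0.934), from 87.9, 78.0 and 70.6 CPM against 156, 88.1 and 51.9 CPM. Atp5c1, the central stalk, measured 228, 180 and 175 CPM in monotherapy and 307, 264 and 134 CPM in combination (unadjusted p = 0.331), and Atp5d, another stalk subunit, had an unadjusted p of 0.334. Atp5s, a coupling factor rather than a structural subunit, had the lowest estimate of all nuclear genes, -0.28 ± 0.30 (SE). It measured 4.17, 3.55 and 2.60 CPM in monotherapy and 1.85, 3.29 and 3.31 CPM in combination, so that replicate 1 was the lowest there. Subunit c, which forms the rotor ring, has 3 genes for 1 mature protein: per exonic length Atp5g2 held 49.0% of their summed level, Atp5g3 44.3% and Atp5g1 6.64%. In counts over the 6 libraries Atp5g3 was above Atp5g2, at 31606 and 26690. Atp5g3 had 2181 exonic bases and Atp5g2 1675, while their longest protein-coding transcripts had 723 and 753. Which of these 2 was more abundant thus depends on the length used.

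Copies and overlaps bear on some of these values. In GENCODE M21 transcripts, 25 of the 92 nuclear genes had a stretch of at least 100 bases with at least 95% identity in another gene, in 8 of them over 50% or more of the transcript (Atp5f1, Atp5h, Atp5k, Atp5l, Atp5o, Ndufb11, Ndufs3 and Uqcrb). Exonic bases were shared with another gene in 27, mostly on the opposite strand. The shared part was 44.0% of Atp5o, 39.0% of Ndufb6 and 30.0% of Ndufa13. Neither the treatment of reads with several matches nor the use of strand is stated for the counting.

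The 13 mitochondrial genes held 1.72% to 3.33% of all counts in a library, more than the 92 nuclear genes together at 0.612% to 0.945%. The ratio of summed mitochondrial to summed nuclear CPM was 4.29, 3.64 and 3.67 in monotherapy and 3.39, 4.31 and 2.82 in combination. The groups overlapped in this ratio. mt-Co1, the catalytic subunit of complex IV, made up 50.0% to 53.8% of the mitochondrial counts. These shares and the ratio include 6 genes with low counts, described below, whose levels are not read as abundance. mt-Co1 measured 17934, 13001 and 12431 CPM in monotherapy and 18942, 18499 and 8158 CPM in combination, a log2 fold change of 0.07 ± 0.36 (SE, edgeR adjusted p = 0.987). mt-Cytb, the only mitochondrial subunit of complex III, measured 4975, 3658 and 3810 CPM against 4972, 4662 and 2239 CPM. mt-Nd1 measured 3290, 2453 and 2322 CPM against 3682, 3045 and 1312 CPM, and mt-Nd5, with the lowest estimate at -0.16 ± 0.29 (SE), measured 3533, 2749 and 2712 CPM against 3015, 3410 and 1613 CPM. In all of these, combination replicate 3 was below every other library. mt-Nd2, mt-Nd4 and mt-Nd6 did the same, with log2 fold changes of -0.04, 0.16 and 0.04.

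The other 6 mitochondrial genes, which follow each other from mt-Co2 to mt-Nd4l, had far fewer counts. They had 29 to 433 counts in a library, where the other 7 had 10271 to 702005. Per length the lowest of the 7 (mt-Nd6, 952 CPM per kb) was 41.8 times the highest of the 6 (mt-Nd3, 22.8 CPM per kb). Within the run the levels were 3.87 CPM per kb for mt-Co2, 8.47 for mt-Atp8, 6.94 for mt-Atp6, 10.3 for mt-Co3, 22.8 for mt-Nd3 and 7.11 for mt-Nd4l. These genes are transcribed on 1 long precursor with their neighbours, as is known for mitochondrial DNA.

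The same run of genes has an annotated copy in nuclear DNA on chromosome 1, which is why the sequences are shown. The copy of mt-Co2 is Gm28661, and all 681 aligned bases (99.6% of the gene) were the same. No mismatch was found either between mt-Atp6 and Gm10925 (678 bases), mt-Co3 and Gm28437 (783), mt-Nd3 and Gm28438 (342), mt-Nd4l and Gm10222 (294), or the first 63.6% of mt-Nd4 and Gm28439 (876). mt-Atp8 has no such transcript, and the 233 bases between Gm10925 and Gm28661 hold no annotated gene. At the edge of the copy, Gm29216 matched 31.3% of mt-Co1 with 1 mismatch. The first lines below are the start of mt-Co2 (MT:7013-7132, plus strand) and its copy (chr1:24615446-24615565, minus strand), with no difference. The next are a stretch of mt-Co1 (MT:6390-6509, plus strand) and its copy (chr1:24616069-24616188, minus strand), with the mismatched base in capitals. All are read 5′ to 3′ from GENCODE M21 transcripts of GRCm38.
mt-Co2: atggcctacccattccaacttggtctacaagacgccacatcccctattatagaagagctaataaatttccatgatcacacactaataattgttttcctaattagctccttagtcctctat
Gm28661: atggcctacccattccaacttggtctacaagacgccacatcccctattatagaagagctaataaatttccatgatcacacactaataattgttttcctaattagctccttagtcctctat
mt-Co1: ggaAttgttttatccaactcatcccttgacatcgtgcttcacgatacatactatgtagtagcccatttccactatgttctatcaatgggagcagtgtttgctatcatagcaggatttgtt
Gm29216: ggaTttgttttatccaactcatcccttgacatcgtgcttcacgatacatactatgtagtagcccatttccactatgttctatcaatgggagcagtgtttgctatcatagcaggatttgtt

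The 7 chromosome 1 copies had 5 to 790 counts in a library, so for the 5 pairs from mt-Co2 to mt-Nd4l neither locus carried counts of the size seen in the other 7 mitochondrial genes. A read from an identical stretch cannot be placed by its letters, and how such a read was counted is not stated in the labels or notes, so its part in these low values was not tested. For the same reason the levels of the 6 genes relative to other genes are not read as abundance. Copies of at least 95% identity, exact ones included, covered all of mt-Co1, 63.6% of mt-Nd4, 52.3% of mt-Nd5 and 49.1% of mt-Nd2. These genes were among the 7 with at least 10271 counts in every library. Their shares pool exact and inexact copies, so they cannot be set against the exact matches on chromosome 1. The chromosome 1 copies alone aligned to 31.3% of mt-Co1 and 63.6% of mt-Nd4.

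**Figure D4:**
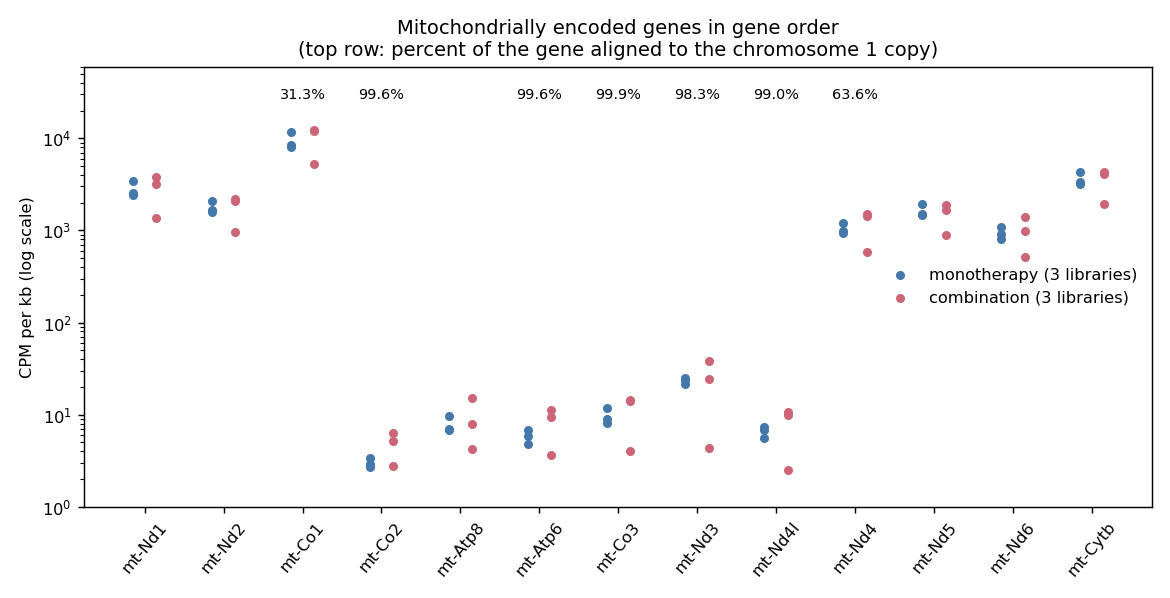
CPM per kb on a log axis (y axis) for the 13 mitochondrial genes in gene order (x axis), 3 libraries per group; the top row gives the percent of the gene aligned to its annotated chromosome 1 copy. The 6 genes from mt-Co2 to mt-Nd4l lie between 3.87 and 22.8 CPM per kb in the mean of 6 libraries and the other 7 between 952 and 9597.

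The largest estimate of any member was in this run. mt-Co2 measured 2.31, 1.83 and 1.98 CPM in monotherapy and 4.34, 3.53 and 1.92 CPM in combination. Replicates 1 and 2 of the combination group were above all monotherapy libraries and replicate 3 lay among them. Its log2 fold change was 0.68 ± 0.32 (SE, n = 3 per group), with an unadjusted p of 0.0621 and an edgeR adjusted p of 0.661. mt-Atp6 measured 4.59, 4.01 and 3.23 CPM against 7.62, 6.43 and 2.48 CPM (log2 fold change 0.48 ± 0.37, SE), and mt-Co3 measured 9.35, 6.98 and 6.29 CPM against 11.1, 11.4 and 3.16 CPM (0.18 ± 0.40, SE). mt-Nd3 had the widest spread, 8.63, 8.17 and 7.55 CPM against 13.1, 8.56 and 1.53 CPM, with an estimate of -0.07 ± 0.55 (SE). mt-Nd4l and mt-Atp8 had estimates of 0.21 ± 0.46 and 0.22 ± 0.44 (SE). In 5 of the 6 genes combination replicate 3 was below all monotherapy libraries.

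Leaving out combination replicate 3 raised the number of genes with a small unadjusted p without adding a call. Then 41 of 86 nuclear and 5 of 13 mitochondrial genes had an unadjusted p under 0.05 in edgeR, where 17.1% of the 15628 genes tested had one. Still 0 members passed adjustment over all genes, and the smallest adjusted p was 0.0782 (mt-Atp6), followed among nuclear genes by 0.105 (Atp5c1).

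Exonic length went with the same pattern over libraries. Among 7297 other genes with a mean log2 CPM above 4, those of up to 1000 exonic bases (188 genes) had medians of 0.58, 0.11 and -0.59 in combination replicates 1, 2 and 3 relative to the monotherapy mean. Those over 5000 bases (3163 genes) had -0.17, -0.01 and 0.05. The 23 nuclear members of up to 1000 bases stood at 0.69, 0.07 and -0.60, near other genes of their length. The 32 members between 1000 and 2000 bases stood at 0.63, 0.09 and -0.49, where 711 other genes stood at 0.37, 0.07 and -0.31. The 15 members between 3000 and 5000 bases stood at 0.46, 0.11 and -0.31, where 2159 other genes were at 0.04, 0.01 and -0.05. Members of every exonic length class were thus further from 0 in combination replicate 1 than the other genes of that class. This difference between gene sets was described and not tested. Exonic length counts all annotated exons and can far exceed a transcript. Atp5l had 6443 exonic bases and a longest protein-coding transcript of 544, and Ndufb5 had 4995 and 1079. Members classed as long can thus have short transcripts, and classes by transcript length were not compared. Spearman's rho of exonic length with the deviation was -0.32 in replicate 1 and 0.51 in replicate 3 over the 86 nuclear members, and -0.56 and 0.39 over the other genes, which share libraries and are not independent. The part of transcript length, RNA quality or library preparation in the members' pattern was not tested.

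**Figure D5:**
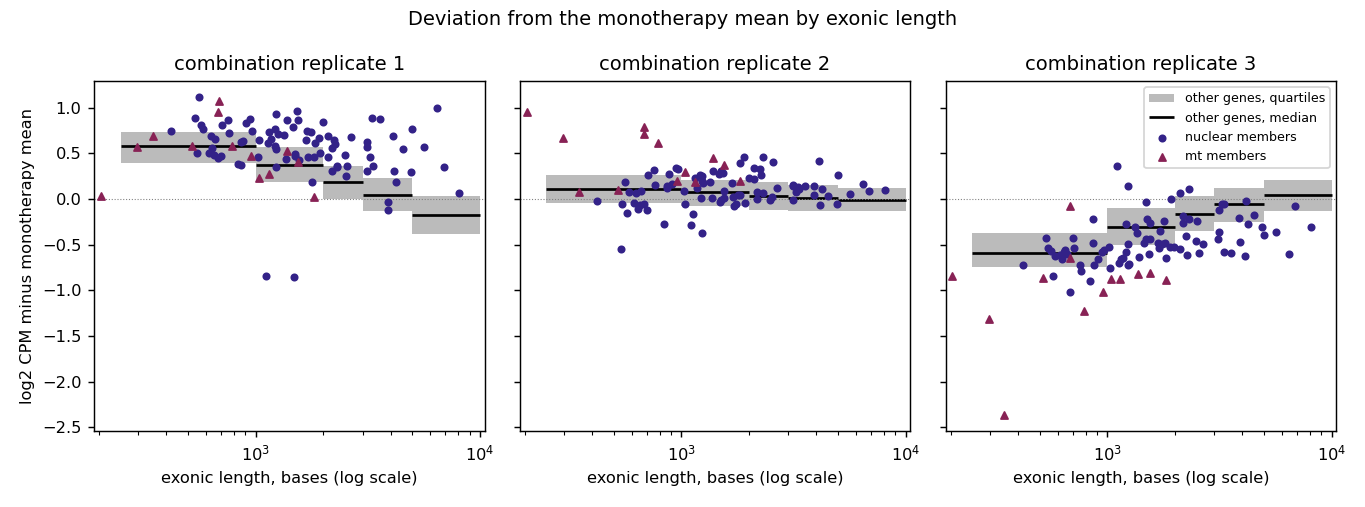
Log2 CPM minus the mean of the monotherapy libraries (y axis) against exonic length on a log axis (x axis) for each combination library; points are members, grey boxes and black lines the quartiles and median of the other genes in each length class, the last of which has no upper bound. Most members lie above 0 in replicate 1 and below 0 in replicate 3, and the other genes' medians change sign between the shortest and the longest class in both.

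Genes outside the members moved with them as well. The 82 tested cytosolic ribosomal protein genes had medians of 0.73, 0.08 and -0.80 in combination replicates 1 to 3, and summed to 191723, 123270 and 67247 CPM there, against 105254 to 133406 CPM in monotherapy. None of the 82 was called, and 71 had estimates above 0 with a median of 0.13. The 6 tested nuclear-retained or noncoding RNAs listed, among them Malat1, went the other way in replicate 1, with medians of -0.59, -0.20 and 0.10. Malat1 measured 1213, 1215 and 1593 CPM in monotherapy and 655, 1106 and 1356 CPM in combination. Of the 13 tested early-response and heat-shock genes, 2 rose (the heat-shock genes Hspa1a and Hspa1b) and 2 fell (the transcription factor genes Egr1 and Jun) in edgeR. Of the 13 estimates 11 were below 0, with a median log2 fold change of -0.45, DESeq2 called 2 higher and 5 lower, and the list summed to 2380 to 3180 CPM in monotherapy and 1515 to 2215 CPM in combination. Their part in the members' values was not tested. The 5 genes outside the set whose profile over the 6 libraries was most like the nuclear members' median were Rpl36al, Rpl23a, Rpl26, Elob and Rps26, with Pearson's r from 0.998 to 0.999, given as a description over 6 libraries. Of the members themselves, 67 of 86 nuclear and 5 of 13 mitochondrial genes had r above 0.9 with that median, which the nuclear members help to set. Cox6b2, at -0.80, was the furthest from it.

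The genes that serve the chain were described by lists. Of 46 tested assembly and maturation factors outside the members, 0 rose and 0 fell, with a median log2 fold change of 0.07 and combination medians of 0.31, 0.07 and -0.23. Tmem126b, which helps assemble complex I, had the smallest p of the list (unadjusted 0.0338, edgeR adjusted 0.548), with 19.5, 14.6 and 14.7 CPM against 27.6, 24.1 and 17.1 CPM. Tmem70, known for ATP synthase assembly, measured 28.1, 24.7 and 27.0 CPM against 36.5, 33.4 and 27.5 CPM. Of 19 electron carrier genes (cytochrome c, the ubiquinone pathway and electron transfer flavoproteins), 0 passed, with a median of -0.01. Etfb, which carries electrons from fatty acid oxidation, had the smallest p there (unadjusted 0.0378), with 13.8, 12.7 and 12.7 CPM against 19.1, 18.8 and 13.7 CPM. Cycs, cytochrome c itself, measured 106, 80.9 and 78.5 CPM against 125, 108 and 60.3 CPM, with combination replicate 1 highest and replicate 3 lowest, as in most members.

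Of 33 genes that copy, transcribe or process mitochondrial DNA and RNA, 0 passed, with a median log2 fold change of 0.03 and combination medians of 0.12, 0.08 and -0.12. Tfam, which packages mitochondrial DNA and starts its transcription, measured 80.9, 69.2 and 65.0 CPM against 92.7, 80.8 and 61.3 CPM. Top1mt, the mitochondrial topoisomerase, measured 10.9, 10.3 and 10.6 CPM against 7.56, 8.93 and 8.18 CPM, values that did not overlap, with an unadjusted p of 0.0394 and an edgeR adjusted p of 0.569. It was the only 1 of the 33 with an unadjusted p under 0.05 in edgeR, and 7.54% of all genes separated downwards in this way. Of 78 mitochondrial ribosomal protein genes, 0 passed, 63 were above 0, and combination medians were 0.44, 0.13 and -0.35. Mrps25 had the smallest p among them (unadjusted 0.0422).

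Of 18 citric acid cycle genes outside complex II, 0 passed, with a median of 0.04. Idh2, the mitochondrial isocitrate dehydrogenase that makes NADPH, was the one with the smallest p (unadjusted 0.0128, edgeR adjusted 0.344). It measured 62.6, 56.4 and 57.7 CPM in monotherapy and 48.4, 45.5 and 43.0 CPM in combination, so that the groups did not overlap. Such a downward separation was seen in 7.54% of all genes. In edgeR, 1 of the 18 genes had an unadjusted p under 0.05, where 8.0% of all genes had one. Of 11 regulators of respiratory genes, 0 passed, and their combination medians of -0.06, 0.05 and 0.13 showed no order like that of the members. Ppargc1a, the PGC-1α coactivator, had 1 to 8 counts in the monotherapy and 13 to 17 in the combination libraries (log2 fold change 1.94 ± 0.68, SE, unadjusted p = 0.0183, edgeR adjusted p = 0.405). Myc measured 131, 144 and 152 CPM against 115, 108 and 126 CPM, values that did not overlap either. Its log2 fold change was -0.29 ± 0.13 (SE, unadjusted p = 0.0506, edgeR adjusted p = 0.625). Nrf1, the transcription factor after which the promoter motif is named, measured 58.6, 64.4 and 60.4 CPM against 70.5, 62.9 and 63.2 CPM. Gabpa measured 90.4, 94.4 and 93.2 CPM against 88.7, 98.0 and 88.5 CPM, and Esrra 27.1, 29.6 and 30.2 CPM against 33.6, 30.5 and 31.6 CPM.

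Nuclear respiratory chain genes are known for promoters with sites of NRF1 and of ETS-family factors such as GABP. RefSeq promoter windows on GRCm38.p6, from 250 bases before to 50 after a transcript start, were matched to 74 of the 92 nuclear members (79 windows). Among the members without one were Atp5a1, Atp5f1, Atp5s, Cox4i1, Cox4i2, Cox6a2, Cox6c, Cox8c, Ndufa2, Ndufa4l2, Ndufaf6, Ndufb9, Ndufs1, Sdhc, Uqcrb, Uqcrc2 and Uqcrq. The NRF1-type core GCGCANGCG, searched on both strands, was in 29.1% of the members' windows and in 6.25% of all 32851 windows. The ETS-type core CCGGAAG was in 22.8% and 8.86%, the YY1-type core AAGATGGCG in 10.1% and 1.40%, and the ERR-type core TCAAGGTCA in 2.53% and 0.42%. CCAAT was in 43.0% and 37.4%, and TATAAA in 10.1% and 13.6%. These shares are descriptions, and a match is not a bound site. The ETS-type and YY1-type cores both contain AAG and can overlap there, and each window was counted once per motif. The windows of Atp5h, Atp5k, Atp5l, Cox6a1, Sdhd and Uqcr11 held both of the first cores. Of these, 4 are shown from one core to the other with short flanks, 5′ to 3′ on the gene's strand, with the matched cores in capitals: Atp5h (chr11:115419936-115420075, minus strand), Cox6a1 (chr5:115348953-115349135, minus strand), Sdhd (chr9:50603874-50603943, minus strand) and Uqcr11 (chr10:80406803-80406902, minus strand).
Atp5h: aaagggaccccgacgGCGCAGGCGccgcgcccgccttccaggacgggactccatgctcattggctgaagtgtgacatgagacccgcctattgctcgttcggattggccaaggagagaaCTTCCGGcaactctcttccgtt
Cox6a1: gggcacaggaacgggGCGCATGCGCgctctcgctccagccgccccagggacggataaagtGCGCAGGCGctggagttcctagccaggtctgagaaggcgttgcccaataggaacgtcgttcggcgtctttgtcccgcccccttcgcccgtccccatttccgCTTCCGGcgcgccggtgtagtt
Sdhd: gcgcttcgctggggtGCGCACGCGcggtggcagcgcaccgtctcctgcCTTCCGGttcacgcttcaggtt
Uqcr11: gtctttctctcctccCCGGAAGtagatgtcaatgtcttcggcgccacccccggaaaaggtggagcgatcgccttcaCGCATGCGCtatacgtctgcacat

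The library pattern was set beside the presence of these cores. The 22 tested members with the NRF1-type core had medians of 0.59, 0.12 and -0.49 in combination replicates 1, 2 and 3, and the 50 matched members without it had 0.62, 0.10 and -0.49. For the ETS-type core the values were 0.59, 0.12 and -0.52 in 18 members with it and 0.60, 0.11 and -0.48 in 54 without. The 8 members with the YY1-type core had 0.55, 0.10 and -0.56, and the 64 without it had 0.60, 0.11 and -0.49. No test was made of these differences.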

How the data were processed

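The authors deposited whole-number read counts per gene, not normalized, for CD8+ T cells of 3 monotherapy and 3 combination libraries. The submitters' processing notes name STAR (2.5.2b), featureCounts, Subread (1.5.2) and also DESeq2. Their settings, strand use, build and annotation were not given in the sources used here. Own files and series table were identical in 6 of 6 libraries, and 6 columns matching no sample were not used. The members and lists were chosen with earlier results of these data known.

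In R 4.3.3, edgeR 4.0.16 with filterByExpr by group, TMM scaling (factors 0.901 to 1.12) and the quasi-likelihood F-test compared the groups without covariates, adjusting by Benjamini-Hochberg at 0.05 over all 15142 genes. CPM uses TMM-scaled totals, log2 CPM a prior count of 2, and CPM per kb the table's exonic length, which retained introns can lengthen. Orders of genes per length hold for that length only. Per complex, genes with the highest level per length, the highest and lowest fold change and the smallest p were named, besides all mitochondrial genes, subunit versions and the first genes of each list. Alternatives were DESeq2 1.42.0, limma-voom 3.58.1, other scalings and filters, a replicate block and leaving out each library. Copies were searched with blastn in GENCODE M21 transcripts.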

Additional observations from a re-analysis of the deposited data

How the results depend on the processing

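No member was called higher or lower under any of the 14 alternatives run, DESeq2 and limma-voom included, so the count stayed at 0 throughout. The median log2 fold change of the nuclear members lay between -0.11 and 0.39 when each library was left out in turn, and that of the mitochondrial members between -0.10 and 0.42; both changed sign with combination replicate 1 left out. Without combination replicate 2, the mitochondrial median was -0.10. Other settings gave nuclear medians from 0.07 (limma-voom) to 0.15 (at least 5 CPM in 3 libraries), and mitochondrial medians of -0.05 (limma-voom) and -0.01 (the same filter, which left 9 of 13 genes). No move was larger than the SD between libraries (0.40 and 0.55). Leaving out 1 of 3 libraries shifts a group mean by only part of that SD. For those settings the comparison could hardly come out otherwise and lends no support to the medians. The genes called higher over the whole table numbered 144, and 247 with DESeq2, 340 with no count filter, 231 with the replicate block and 32 to 233 with 1 library left out. Those called lower numbered 20, and 57 with DESeq2, 113 with no count filter, 57 with the replicate block and 2 to 49 with 1 library left out. The cause of these changes was not tested. With the replicate block the member medians were 0.08 and -0.01. The labels do not say whether the numbers pair the libraries. Deviations of same-numbered libraries correlated at 0.15, -0.06 and 0.28. Monotherapy replicates 1 and 3 correlated best with their own number, and replicate 2 with combination replicate 1 (0.08). With 3 libraries per group these values cannot decide whether the libraries are paired. The low counts of mt-Co2 to mt-Nd4l (29 to 433) limit their precision.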

Other observations

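Marker genes of the sorted and of other cell types gave the following sums. The 8 CD8+ T cell genes listed summed to 6130 to 7395 CPM in monotherapy and 5662 to 7421 CPM in combination, and 0 of them passed the test. Relative to the monotherapy mean their medians were 0.25, 0.15 and -0.31 in combination replicates 1, 2 and 3. The 8 B cell genes listed summed to 41.4 to 62.2 CPM against 47.0 to 81.3 CPM, with 1 gene (Cd22) called higher in edgeR. Of these 8 genes 6 had estimates below 0, the median log2 fold change was -0.54, and Cd79a measured 4.09, 9.44 and 7.62 CPM against 2.03, 7.93 and 2.77 CPM. The 5 natural killer cell genes listed summed to 6.52 to 8.26 CPM against 11.6 to 21.6 CPM, with 1 gene (Gzma, also made by CD8+ T cells) higher. The 5 CD4+ T cell genes listed summed to 21.5 to 27.4 CPM against 15.7 to 29.7 CPM. The myeloid, dendritic, and stromal and endothelial genes listed summed to at most 21.4, 13.2 and 176 CPM in a library, with none called in edgeR. DESeq2 called 1 dendritic gene higher. The 6 erythroid genes listed summed to 2.10 to 7.49 CPM against 1.03 to 1.85 CPM, ranges that did not overlap. All 3 that were tested had estimates below 0, with a median log2 fold change of -1.53. edgeR called 0 of them and DESeq2 called 1 lower.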
